A study of Rattus norvegicus with 12 samples.

Results

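The 4 genes described here encode the fibrillar collagen chains *Col1a1*, *Col1a2* and *Col3a1* and the adhesive glycoprotein fibronectin, *Fn1*. They were taken by Ensembl identifier from a table of 15920 genes (ENSRNOG00000003897, ENSRNOG00000011292, ENSRNOG00000003357 and ENSRNOG00000014288, respectively), and all 4 were found. Expression was measured by RNA-seq in neonatal rat ventricular myocytes (NRVM), primary heart muscle cells isolated from Sprague Dawley pups on postnatal day 2-3 and kept in serum-free medium before treatment. Each of 4 groups held 3 libraries. The vehicle group received neither agent. The PE group received phenylephrine, an α1-adrenergic agonist that drives hypertrophic growth of these cells, at 100 µM. The THZ1 group received THZ1, a covalent inhibitor of the transcriptional kinases CDK7, CDK12 and CDK13, at 10 nM. The PE+THZ1 group received both at the same doses. By the methods, inhibitor or its vehicle was given 3 h before PE. All cultures were pre-plated and exposed to BrdU to deplete nonmyocytes, and the nonmyocytes that remained were not measured here. The labels give 48 h of treatment, whereas the names of 6 columns of the table, those of PE and PE+THZ1, give 24 h.

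Type I collagen is a trimer of 2 α1 chains (*Col1a1*) and 1 α2 chain (*Col1a2*), and type III collagen is a trimer of 3 identical chains (*Col3a1*). Both assemble into the fibrils that carry tension in the heart wall, and type III is the finer and more extensible form. Fibronectin is secreted as a dimer, is bound by integrins on the cell surface and forms a matrix on which collagen fibrils are deposited. In heart tissue fibroblasts are the main source of the fibrillar collagens, and both are deposited in excess during fibrosis. In bulk RNA, fewer cells of a type and less RNA per cell cannot be told apart. Because the annotation at hand paired none of the table's identifiers with a gene symbol (0 of 15920), markers of myocytes, fibroblasts or other cells were not analysed, and the share of each cell type was not tested.

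RefSeq promoter sequence (build GRCr8) was matched by symbol for 1 of the 4 genes, *Col1a2*. It is shown because no promoter sequence was matched for the other genes. The stretch lies at chr4:33518307-33518426 on the plus strand, 250 to 131 bases before the annotated start of the gene, and reads 5′ to 3′, with motif matches in capitals:
Col1a2: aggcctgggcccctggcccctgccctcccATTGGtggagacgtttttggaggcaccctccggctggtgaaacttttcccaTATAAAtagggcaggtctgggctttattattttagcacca
Short motifs were searched on both strands of this stretch only, and the bases nearer to the start were not searched. CCAAT, the letters bound by NF-Y, was found on the minus strand as ATTGG, 221 to 217 bases before the start, and 17.1% of 33469 promoter stretches of the same length and position held it. TATAAA, the core of the TATA box, was found 170 to 165 bases before the start, and 6.31% of the stretches held it. GGGCGG, the core of the GC box bound by Sp1, had no match here and was held by 12.7% of the stretches. CAGACA had no match either and was held by 8.98%, and shorter parts of it were not searched. The matches do not overlap each other and describe the letters only.

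The table holds normalised counts, that is, reads per gene divided by a size factor per library. Recovered totals ran from 30458862 to 45885754 reads per library. The 4 genes had between 46360 and 303889 reads each in a library. At the fewest reads of a gene in each group, counting error alone was 0.193% to 0.464% of a value. The coefficient of variation between replicates was 0.993% to 5.20%. The labels do not say whether libraries of a group came from separate cell preparations, and p-values measure the spread between these libraries only. Vehicle replicate 2 stood apart. Its reads differed from those of the other vehicle libraries by a chi-square per degree of freedom of 63.3 and 67.2, against 2.29 to 10.3 for other pairs within a group. The main results are therefore also given without it. After the deposited scaling the mean summed normalised count was 90.0% of that of vehicle with THZ1, 106% with PE and 88.9% with PE+THZ1, so scaling all libraries to equal totals moves every change of the genes.

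PE lowered all 4 matrix genes. *Col3a1* fell most, to 0.599-fold of vehicle (95% confidence interval 0.555 to 0.646), while *Col1a1* stood at 0.814-fold (0.746 to 0.888), *Col1a2* at 0.809-fold (0.756 to 0.866) and *Fn1* at 0.779-fold (0.710 to 0.854). Across all genes tested, 23.0% were called lower with PE (limma, adjusted p under 0.05), and 24.5% were lower without overlap between the libraries. The comparison addresses the transcriptional response of NRVM cultures to hypertrophic stress, whichever cells in them carried the RNA.

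*Col1a1*, the α1 chain of type I collagen, had normalised counts of 212843, 195076 and 199063 in vehicle replicates 1 to 3. With PE its counts were 173138, 164153 and 156770. Every PE library lay below every vehicle library, and the log2 change was -0.30 (standard error 0.06, adjusted p = 0.000462, limma). *Col1a2*, the α2 chain, had counts of 78223, 79840 and 80594 with vehicle and of 66587, 64606 and 61961 with PE. The groups again did not overlap, with a log2 change of -0.31 (standard error 0.05, limma adjusted p = 2.85e-05). The log2 changes of the 2 chains of type I collagen were thus nearly equal, although they are encoded by separate genes.

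*Col3a1*, the type III chain, had normalised counts of 86180, 88137 and 94274 with vehicle and of 54096, 55390 and 51239 with PE. Its highest PE library was well below its lowest vehicle library. The log2 change was -0.74 (standard error 0.05, limma adjusted p = 1.92e-09), and only 6.78% of the genes tested had a lower change. *Fn1* had counts of 240706, 232053 and 246092 with vehicle and of 195099, 186004 and 178925 with PE, also without overlap. Its log2 change was -0.36 (standard error 0.06, limma adjusted p = 0.000113). The median log2 change was -0.33 over the 4 genes and 0.014 over all genes tested. Without vehicle replicate 2 the log2 changes were -0.32 for *Col1a1*, -0.30 for *Col1a2*, -0.75 for *Col3a1* and -0.38 for *Fn1*, and each remained past the threshold.

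**Figure D1:**
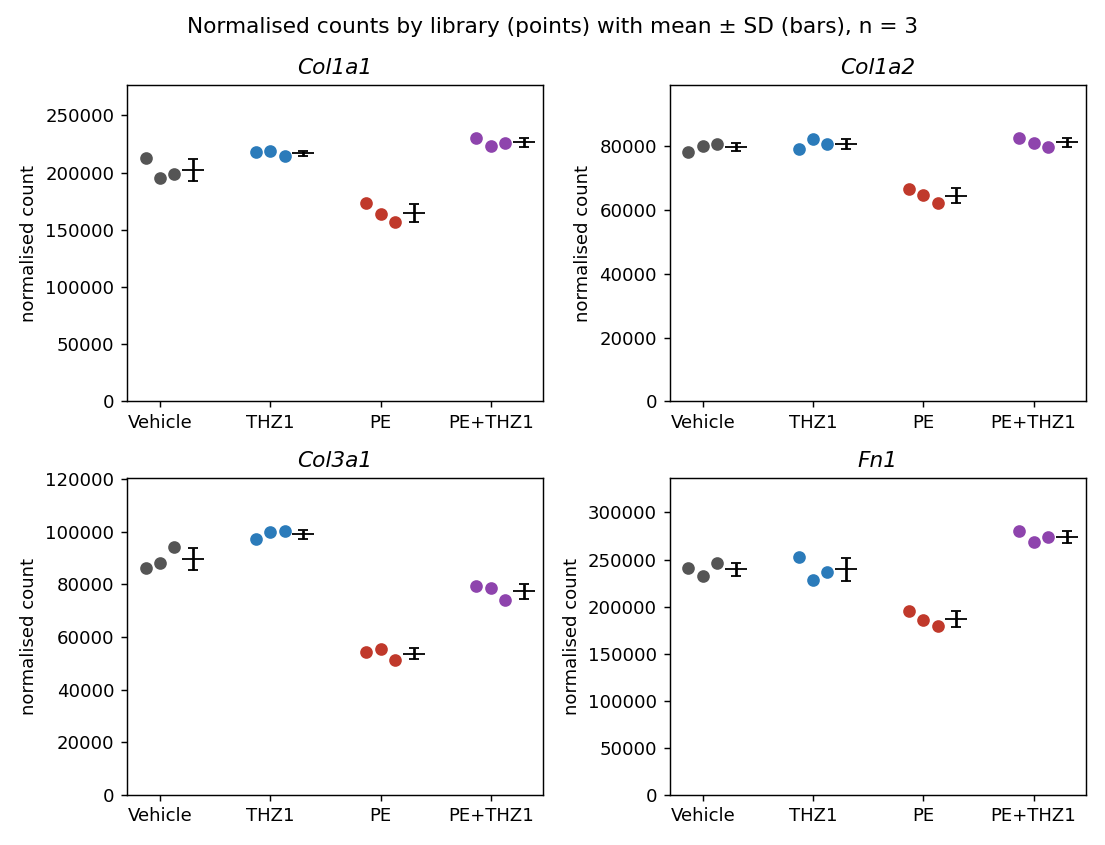
Normalised counts (vertical axis, from 0) of the 4 genes in each of 12 libraries (points) by group, with the mean and SD of 3 libraries (bars). The 3 PE libraries are the lowest for every gene, with means of 164687 for Col1a1, 64384 for Col1a2, 53575 for Col3a1 and 186676 for Fn1.

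Adding THZ1 to PE was associated with higher levels of all 4 genes than PE alone. *Fn1* was 1.47-fold of PE (95% confidence interval 1.34 to 1.61), *Col3a1* 1.44-fold (1.34 to 1.56), *Col1a1* 1.38-fold (1.26 to 1.50) and *Col1a2* 1.26-fold (1.18 to 1.35). Of all genes tested, 28.0% were called higher in this comparison and 32.2% were higher without overlap. It shares the PE libraries with the comparison above and is therefore not independent of it. The question behind it is what CDK7/12/13 inhibition does to the stress response.

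With PE+THZ1, *Col1a1* had normalised counts of 230455, 222922 and 225554. The log2 change from PE was 0.46 (standard error 0.06, limma adjusted p = 3.04e-06). *Col1a2* had counts of 82558, 81042 and 79748, a log2 change of 0.33 (standard error 0.05, limma adjusted p = 7.18e-06). Both chains of type I collagen were thus higher in every PE+THZ1 library than in any PE library. *Col3a1* had counts of 79360, 78592 and 73994 and a log2 change of 0.53 (standard error 0.05, limma adjusted p = 8.57e-08). *Fn1* had counts of 280388, 268137 and 273696 and a log2 change of 0.55 (standard error 0.06, limma adjusted p = 5.34e-07). Neither gene had an overlap with its PE libraries. The median log2 change was 0.49 over the 4 genes, against 0.012 over all genes tested. Scaling to equal totals moved the median of all genes to a log2 change of 0.27, and the 4 genes exceeded that median by 0.33 (*Col1a2*) to 0.55 (*Fn1*). With quantile normalisation the changes were larger, with log2 values of 1.34 for *Col1a1*, 0.77 for *Col1a2*, 0.99 for *Col3a1* and 1.36 for *Fn1*, against a median of 0.053 over all genes.

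**Figure D2:**
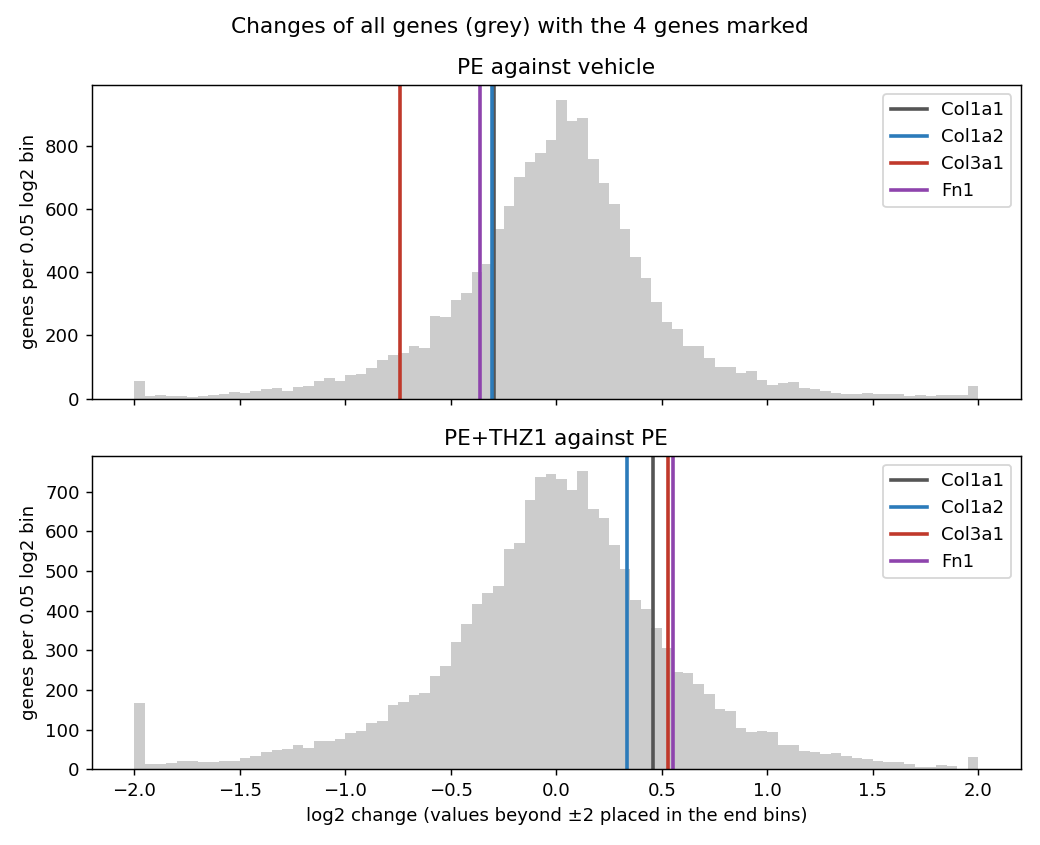
Histograms of the log2 changes of all 15920 genes (grey, genes per 0.05 log2 bin) with the 4 genes as vertical lines, for PE against vehicle and for PE+THZ1 against PE. All 4 genes lie left of 0 in the upper panel, Col3a1 farthest at -0.74, and right of 0 in the lower panel, from 0.33 for Col1a2 to 0.55 for Fn1.

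The distance of PE+THZ1 from PE differed between the genes. Expressed as a share of the distance from PE to vehicle on the log2 scale, where 0 is the PE level and 1 the vehicle level, PE+THZ1 reached 0.715 for *Col3a1* (SD over the 3 PE+THZ1 libraries 0.0739). It reached 1.09 for *Col1a2* (SD 0.0817), 1.55 for *Col1a1* (SD 0.0818) and 1.54 for *Fn1* (SD 0.0895). Under the deposited scaling *Col3a1* thus lay short of the vehicle level, *Col1a2* near it, and *Col1a1* and *Fn1* beyond it. These SDs hold the PE and vehicle means fixed and leave out their spread. With 1 library left out in turn, the share ranged from 1.42 to 1.77 (*Col1a1*) and from 1.05 to 1.13 (*Col1a2*). It ranged from 0.689 to 0.757 for *Col3a1* and from 1.45 to 1.63 for *Fn1*. With equal library totals the share was 0.948 for *Col3a1*, 1.50 for *Col1a2*, 1.86 for *Col1a1* and 1.81 for *Fn1*. The places of *Col3a1* and *Col1a2* relative to vehicle thus depended on the scaling.

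Compared with vehicle directly, *Fn1* was 1.14-fold higher with PE+THZ1 (95% confidence interval 1.04 to 1.25, log2 change 0.19, standard error 0.06, limma adjusted p = 0.0162). *Col1a1* was 1.12-fold higher (1.03 to 1.22, log2 change 0.16, standard error 0.06, limma adjusted p = 0.0320). *Col3a1* was lower, at 0.864-fold (0.800 to 0.932, log2 change -0.21, standard error 0.05, limma adjusted p = 0.00263). For these 3 genes the libraries of the 2 groups did not overlap. *Col1a2* did not pass the test, at 1.02-fold (0.952 to 1.09, limma adjusted p = 0.652). Of all genes tested, 24.2% were called higher and 24.9% lower in this comparison, and 26.6% were higher and 26.6% lower without overlap. The 4 genes thus had 2 calls higher and 1 lower against that background. Without vehicle replicate 2 the log2 changes were 0.17 for *Fn1* (limma adjusted p = 0.0177), 0.14 for *Col1a1* (0.0431) and -0.22 for *Col3a1* (0.000745).

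These smaller differences were less stable than those against PE. The call of *Col1a1* was lost without vehicle replicate 3 (limma adjusted p = 0.0793) and without PE+THZ1 replicate 1 (0.0972), replicate 2 (0.0655) or replicate 3 (0.0612), and that of *Fn1* without PE+THZ1 replicate 1 (0.0611). With equal library totals, which moved the median log2 change of all genes to 0.17, *Col3a1* no longer passed (log2 change -0.04, limma adjusted p = 0.567) and *Col1a2* did (0.20, limma adjusted p = 0.00690). With quantile normalisation the log2 changes were 0.76 for *Col1a1* and 0.70 for *Fn1*, far above the deposited scaling, and -0.065 for *Col3a1*, which did not pass (limma adjusted p = 0.209).

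Under the deposited scaling, THZ1 without PE moved the 4 genes little. *Col3a1* was 1.11-fold of vehicle (95% confidence interval 1.03 to 1.20), and the other 3 genes did not pass the test. Of all genes tested, 23.4% were called higher with THZ1 alone and 23.7% lower, while 25.7% were higher without overlap, so 1 call of 4 is near the background. The comparison asks what the inhibitor does to unstressed cultures.

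*Col3a1* had normalised counts of 97132, 99910 and 100351 with THZ1, all above its vehicle libraries, and a log2 change of 0.15 (standard error 0.05, limma adjusted p = 0.0267). The call was lost without vehicle replicate 1 (limma adjusted p = 0.0905), THZ1 replicate 2 (0.0733) or THZ1 replicate 3 (0.0866), and was kept without vehicle replicate 2 (0.0267). *Col1a1* had counts of 217565, 218393 and 214321 and a fold of 1.07 (0.982 to 1.17, limma adjusted p = 0.184). Its THZ1 libraries lay just above its highest vehicle library, 214321 against 212843. *Col1a2* had counts of 78954, 82088 and 80643 and a fold of 1.01 (0.946 to 1.08, limma adjusted p = 0.782). *Fn1* had counts of 252911, 228331 and 237105 and a fold of 0.999 (0.911 to 1.09, limma adjusted p = 0.985), with THZ1 libraries above and below those of vehicle. With equal library totals the median log2 change of all genes was 0.15. Those of the 4 genes were 0.15 (*Fn1*) to 0.30 (*Col3a1*), and all but that of *Fn1* passed the test. With quantile normalisation the changes were 0.67 for *Col1a1*, 0.53 for *Fn1*, 0.27 for *Col3a1* and 0.070 for *Col1a2*. All but that of *Col1a2* passed the test.

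**Figure D3:**
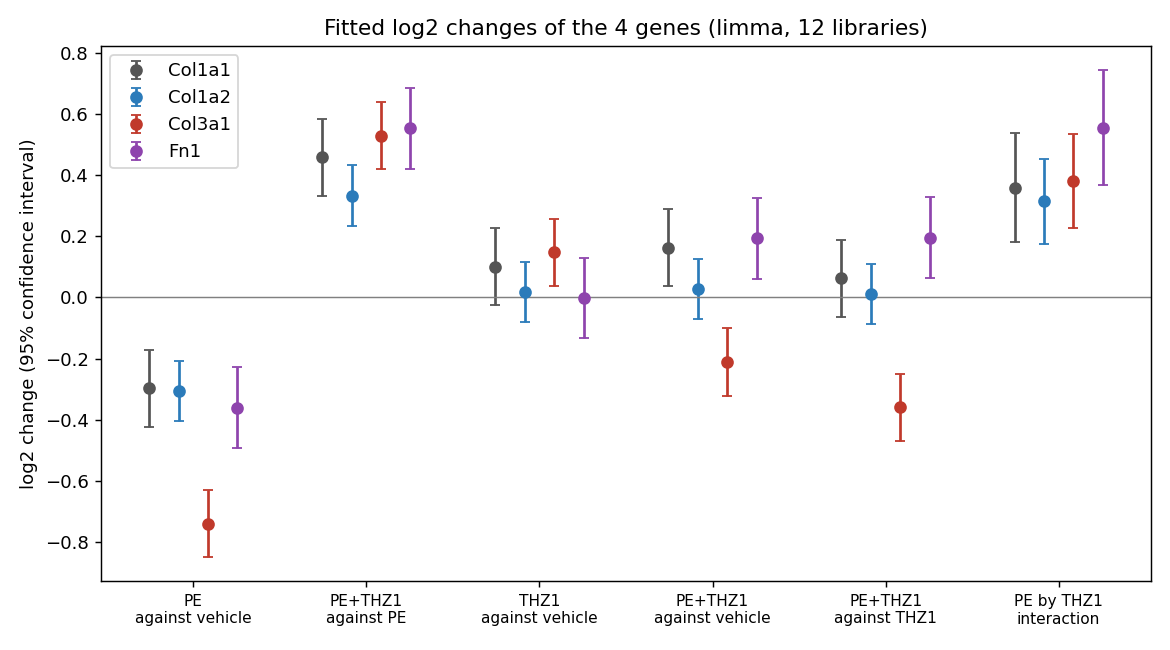
Log2 changes of the 4 genes (points) with 95% confidence intervals (bars) in 5 comparisons and for the interaction of PE and THZ1, from a limma fit of 12 libraries. With PE against vehicle every interval is below 0, with PE+THZ1 against PE every interval is above 0, and in PE+THZ1 against THZ1 only that of Col3a1 (-0.36) is below 0 and only that of Fn1 (0.20) above 0.

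The effect of THZ1 was greater in the presence of PE than in its absence for all 4 genes. The interaction, the log2 change of PE+THZ1 against PE less that of THZ1 against vehicle, was 0.56 for *Fn1* (standard error 0.09, limma adjusted p = 0.000147), 0.38 for *Col3a1* (standard error 0.07, limma adjusted p = 0.000822), 0.36 for *Col1a1* (standard error 0.08, limma adjusted p = 0.00393) and 0.32 for *Col1a2* (standard error 0.07, limma adjusted p = 0.00157). Over all genes tested, 12.3% were called with a positive interaction, and 28.3% in either direction. The same quantity is the PE effect with THZ1 less the PE effect without it. The PE effect on each of the 4 genes was thus shifted upward when THZ1 was present. Under THZ1 its log2 value stayed negative for *Col3a1* (-0.36) and was 0.20 for *Fn1*, 0.06 for *Col1a1* and 0.01 for *Col1a2*.

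The PE effect that was left under THZ1 set the genes apart. *Col3a1* was lower with PE+THZ1 than with THZ1 alone, at 0.780-fold (95% confidence interval 0.722 to 0.841, log2 change -0.36, standard error 0.05, limma adjusted p = 7.07e-05). *Fn1* was higher, at 1.15-fold (1.04 to 1.26, log2 change 0.20, standard error 0.06, limma adjusted p = 0.0334). *Col1a1* stood at 1.04-fold (0.957 to 1.14, limma adjusted p = 0.526) and *Col1a2* at 1.01-fold (0.940 to 1.08, limma adjusted p = 0.913). Of all genes tested, 11.2% were called higher and 10.2% lower. The call of *Fn1* was lost without THZ1 replicate 2 (limma adjusted p = 0.142) or 3 (0.109), or without PE+THZ1 replicate 1 (0.111), 2 (0.0716) or 3 (0.0777), whereas the adjusted p of *Col3a1* stayed at 0.000893 or less with any library left out.

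In order of level, *Col1a1* rose from PE through vehicle and THZ1 to PE+THZ1, and of these neighbours only PE and vehicle passed the test. *Col1a2* followed the same order, and again only PE and vehicle passed. *Col3a1* rose from PE through PE+THZ1 and vehicle to THZ1, and each step passed the test in the main fit. As given above, the call between PE+THZ1 and vehicle was lost with equal totals or quantile normalisation. The call between vehicle and THZ1 was lost when certain single libraries were left out. *Fn1* rose from PE through THZ1 and vehicle, which did not pass the test against each other, to PE+THZ1. Together the 4 genes took 1.61% ± 0.0463 (SD, n = 3) of the reads counted on genes with vehicle and 1.16% ± 0.0463 with PE. They took 1.95% ± 0.0580 with PE+THZ1 and 1.86% ± 0.00224 with THZ1. A share of reads sets all libraries to equal totals. Under that scaling the median log2 change of all genes from vehicle was -0.074 with PE, 0.17 with PE+THZ1 and 0.15 with THZ1.

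Ratios between the genes within a library do not depend on its size factor. The ratio of *Col3a1* to *Col1a1*, type III to type I, was 0.443 ± 0.0351 (SD, n = 3) with vehicle and 0.457 ± 0.0109 with THZ1. It was 0.326 ± 0.0125 with PE and 0.342 ± 0.0125 with PE+THZ1. The ratio was thus lower in both groups that received PE, with or without THZ1. Its libraries did not overlap between PE and vehicle (fold 0.735) or between PE+THZ1 and vehicle (fold 0.772), and each comparison gave an exact two-sided permutation p of 0.1, the smallest that 3 libraries against 3 allow. Between PE+THZ1 and PE the ratio differed by 1.05-fold with overlapping libraries (exact permutation p = 0.2).

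The ratio of the type I chains, *Col1a1* to *Col1a2*, was 2.54 ± 0.153 (SD, n = 3) with vehicle, 2.56 ± 0.0377 with PE, 2.69 ± 0.0557 with THZ1 and 2.79 ± 0.0388 with PE+THZ1. These are ratios of normalised counts without division by transcript length and do not give the ratio of molecules. The ratio was 1.09-fold higher with PE+THZ1 than with PE without overlap (exact permutation p = 0.1). The ratio of *Fn1* to *Col1a1* was 1.19 ± 0.0528 with vehicle, 1.10 ± 0.0585 with THZ1, 1.13 ± 0.00726 with PE and 1.21 ± 0.00724 with PE+THZ1. It was 1.07-fold higher with PE+THZ1 than with PE, also without overlap (exact permutation p = 0.1). In all 12 ratio comparisons were run, 5 of them without overlap, and the smallest Benjamini-Hochberg adjusted p was 0.24, so none could pass 0.05 in this design.

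**Figure D4:**
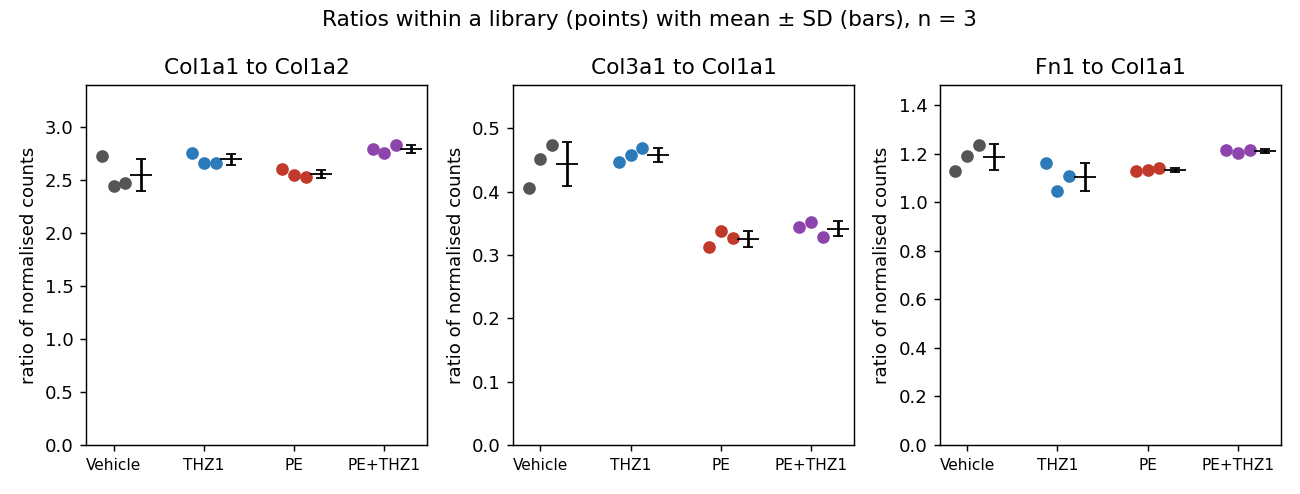
Ratios of normalised counts within a library (vertical axis, from 0) for 3 pairs of genes, by group, with each library as a point and the mean and SD of 3 libraries as bars. The ratio of Col3a1 to Col1a1 is 0.443 with vehicle and 0.457 with THZ1 but 0.326 with PE and 0.342 with PE+THZ1.

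The likeness of patterns was measured as Pearson's r of log2(normalised count + 1) over 12 libraries, among 11163 other genes with a mean normalised count of at least 100. The libraries fall into 4 groups, so r describes the shared order of the groups. *Fn1* and *Col1a1* had an r of 0.948, which placed *Col1a1* at rank 34 among the genes most like *Fn1*, and *Fn1* at rank 116 among those most like *Col1a1*. *Col1a1* and *Col1a2* had an r of 0.941, at ranks 158 and 150. Such values were common, since 181 genes (*Fn1*) to 549 genes (*Col3a1*) had an r of at least 0.9 with a given member of the 4. *Col1a2* was about as like *Fn1* (r = 0.907) as it was like *Col3a1* (r = 0.904). *Col3a1* was less like *Col1a1* (r = 0.789) and *Fn1* (r = 0.694). Among the genes most like *Col3a1*, *Col1a2*, *Col1a1* and *Fn1* stood at ranks 524, 1368 and 2032. The gene closest to *Col3a1* was ENSRNOG00000010887 (r = 0.994), which fell with PE by 0.71 on the log2 scale. The gene closest to *Fn1* was ENSRNOG00000002215 (r = 0.981), which fell with PE by 0.42. The authors' deposited column of clusters puts all 4 genes in its cluster 1, with 5024 genes or 31.6% of the table, a grouping made from these same libraries.

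The choice of scaling decided part of these results. The falls with PE and the rises from PE to PE+THZ1 passed the test for all 4 genes under each of 5 scalings, and the interaction did too. Of the 5 scalings, quantile normalisation gave the greatest falls with PE, with log2 changes of -0.59 for *Col1a1*, -0.66 for *Col1a2*, -1.05 for *Col3a1* and -0.66 for *Fn1*. It also gave the greatest interactions, at 0.67 for *Col1a1*, 0.70 for *Col1a2*, 0.71 for *Col3a1* and 0.83 for *Fn1*. *Fn1* with THZ1 alone had no clear direction as deposited (log2 change -0.0019, limma adjusted p = 0.985). With equal totals its log2 change was 0.15, as was the median of all genes, and it did not pass the test. With quantile normalisation it was 0.53, which did pass (limma adjusted p = 3.99e-07). *Col3a1* was the 1 gene whose log2 change of PE+THZ1 against vehicle was negative under all 5 scalings. The scaling also moved the split of calls over all genes. Of the genes called, 54.3% were higher with PE as deposited and 37.3% with equal totals. For PE+THZ1 against PE it was 49.6% and 77.4%, for THZ1 alone 49.7% and 72.5%, for PE+THZ1 against vehicle 49.3% and 74.3%, and for the interaction 43.5% and 73.2%.

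**Figure D5:**
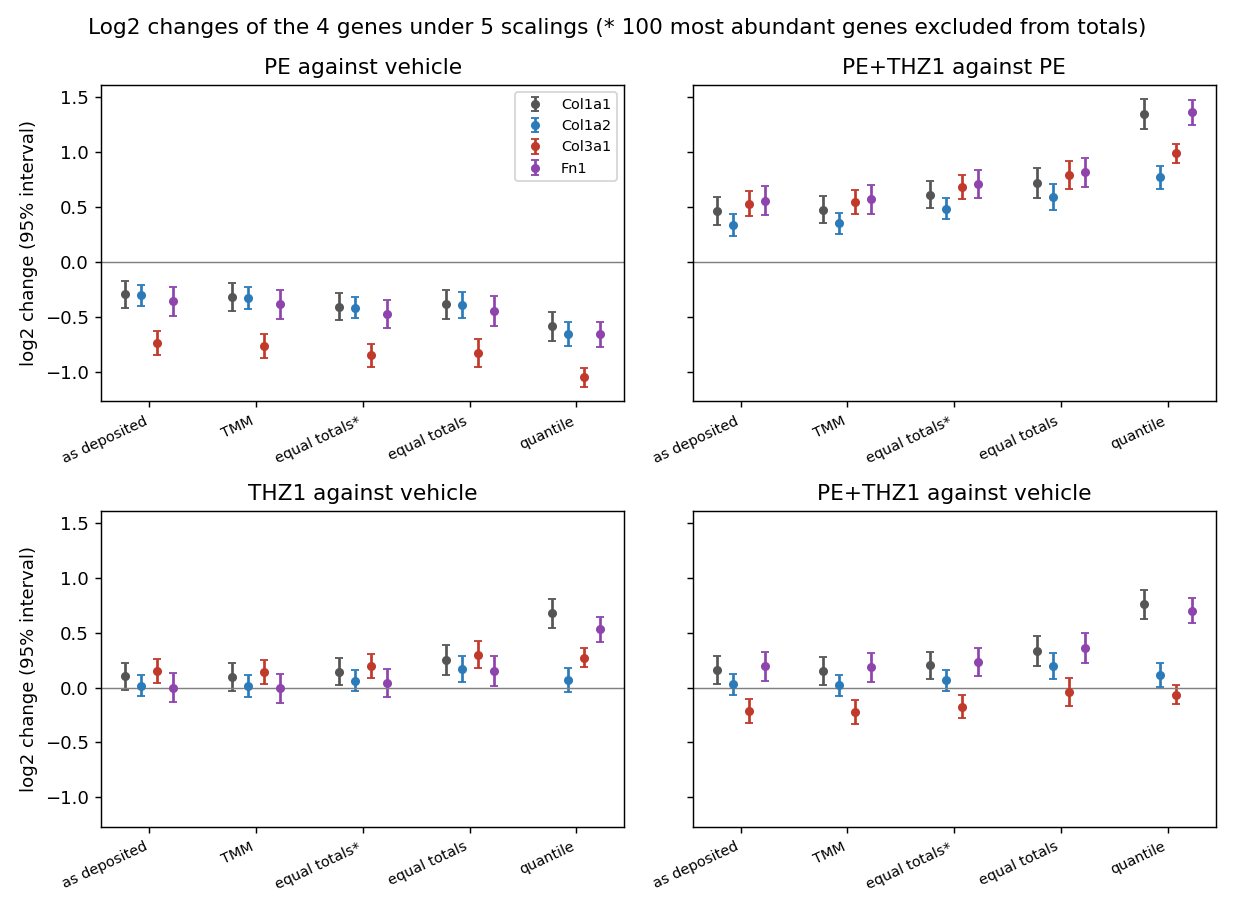
Log2 changes of the 4 genes (points) with 95% confidence intervals (bars) in 4 comparisons under 5 scalings of the libraries: as deposited, TMM, equal totals without the 100 most abundant genes (starred), equal totals and quantile normalisation. The changes with PE stay below 0 and those of PE+THZ1 against PE above 0, whereas with THZ1 alone Col1a1 runs from 0.09 to 0.67.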

How the data were processed

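RNA-seq was measured in 12 NRVM libraries, grouped by their titles. By the methods, the authors aligned single-end reads to rn5 with TopHat 2.1.1, counted them per gene with htseq-count using strand, and normalised them in DESeq2. The deposited values are a signal, reads per gene divided by a size factor per library, and all of them came out as whole reads within a tolerance of 0.01 of a read. The columns named baseline were taken as the vehicle libraries, the single untreated group. All 15920 genes were tested with limma 3.58.1 (R 4.3.3) on log2(normalised count + 1), without a filter on low values, in a common fit of 12 libraries with a prior variance that follows expression, two-sided, with Benjamini-Hochberg adjustment over all genes. On simulated reads for PE against vehicle (15920 genes), sets of 50 genes were changed. Of each set, 54% were called at 1.3-fold, 76% at 1.5-fold, 78% at 2-fold and 94% at 4-fold, with 9 false calls in all. The changed genes were drawn across expression levels and were far fewer than those called in the data. The rates therefore do not give the power for the 4 genes. Ratios were compared with exact permutation tests (scipy 1.17.1). Alternatives were edgeR 4.0.16 and DESeq2 1.42.0 on the recovered reads, pseudocounts, filters, scalings, a replicate block and each library left out. A scaling to equal totals that leaves the 100 most abundant genes out of the sum was chosen after seeing the data. The genes, lists and tests were chosen with earlier results of these data known. The genes to be named were the 4 genes and, by likeness, the closest genes over 12 libraries with a mean normalised count of at least 100. Prepared lists of other matrix genes and of cell type markers could not be used, because 0 of 15920 identifiers matched the 47357 entries of the annotation. The column of clusters by the authors was used only to name the cluster.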

Additional observations from a re-analysis of the deposited data

Results flagged for a closer look

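The effect of THZ1 differed between cells with and without PE for all 4 genes (limma interaction, adjusted p under 0.05). For *Fn1* the log2 change with THZ1 was 0.55 with PE and -0.0019 without it, an interaction of 0.56. For *Col3a1* it was 0.53 with PE and 0.15 without it, an interaction of 0.38. For *Col1a1* it was 0.46 and 0.10, an interaction of 0.36, and for *Col1a2* 0.33 and 0.02, an interaction of 0.32. Without vehicle replicate 2, the library that stood apart, the interactions were 0.58, 0.39, 0.39 and 0.31 in the same order. With quantile normalisation they were 0.83, 0.71, 0.67 and 0.70. Over all genes tested, 28.3% had an interaction in either direction.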

How the results depend on the processing

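For PE against vehicle, PE+THZ1 against PE and the interaction, all 4 genes kept their direction and their call under every alternative run. With edgeR the log2 changes with PE were -0.32 (*Col1a1*), -0.33 (*Col1a2*), -0.77 (*Col3a1*) and -0.38 (*Fn1*), and with DESeq2 -0.30, -0.31, -0.74 and -0.36. Other results depended on the setting, and the cause was not tested. Equal library totals moved the median log2 change of all genes to 0.15 with THZ1 alone. For PE+THZ1 against vehicle they moved it to 0.17. For *Fn1* with THZ1 alone, reversed marks a change of sign from a log2 change of -0.0019 as deposited. With equal library totals the log2 changes with THZ1 alone were 0.25 (*Col1a1*, now called), 0.17 (*Col1a2*, now called) and 0.15 (*Fn1*, reversed), and those of PE+THZ1 against vehicle 0.20 (*Col1a2*, now called) and -0.043 (*Col3a1*, call lost). With quantile normalisation they were 0.67 (*Col1a1*, now called) and 0.53 (*Fn1*, reversed) with THZ1 alone, and -0.065 (*Col3a1*, call lost), 0.76 (*Col1a1*) and 0.70 (*Fn1*) for PE+THZ1 against vehicle. With equal totals without the 100 most abundant genes, added after seeing the data, they were 0.15 (*Col1a1*, now called) and 0.043 (*Fn1*, reversed) with THZ1 alone. A fit of the compared groups alone, which has fewer samples, lost the calls of *Col3a1* with THZ1 alone (0.15, limma adjusted p = 0.0801) and of *Col1a1* (0.16, limma adjusted p = 0.0952) and *Fn1* (0.19, limma adjusted p = 0.0547) for PE+THZ1 against vehicle.

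The share of the PE step was 1.86 (*Col1a1*), 1.50 (*Col1a2*), 0.948 (*Col3a1*) and 1.81 (*Fn1*) with equal totals, 2.29 (*Col1a1*), 0.938 (*Col3a1*) and 2.06 (*Fn1*) with quantile normalisation, and 0.796 (*Col3a1*) with equal totals without the 100 most abundant genes.

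With each library left out in turn, the log2 changes with THZ1 alone ranged from 0.12 to 0.19 (*Col3a1*) and from -0.042 to 0.032 (*Fn1*), those of PE+THZ1 against vehicle from 0.14 to 0.20 (*Col1a1*) and from 0.17 to 0.21 (*Fn1*), and those of PE+THZ1 against THZ1 from -0.0045 to 0.024 (*Col1a2*) and from 0.16 to 0.24 (*Fn1*). The share of the PE step ranged from 1.42 to 1.77 (*Col1a1*) and from 1.45 to 1.63 (*Fn1*). The numbers of genes called stayed within 1.5 times the main number under every alternative run.

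The replicate block changed no call of the 4 genes. It gave 8162 genes for PE against vehicle (7992 without it), of which 7916 were shared. The labels do not say what a replicate number marks, and deviations of libraries with the same number had a mean r of 0.0330 over 18 pairs, against -0.0168 over 36 other pairs, with 8 of 12 libraries closest to their own number.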
